A study of Homo sapiens with 9 samples.

Results

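The human mitochondrial genome carries 37 genes, and all 37 have a row in the deposited table of 60719 genes: 13 mRNAs, 2 rRNAs and 22 tRNAs. Membership follows the symbol alone: every Ensembl identifier that maps to a name starting with MT- was taken. The set itself was chosen with earlier results of these data known. RNA was measured in MDA-MB-231 cells, a line derived from a human triple-negative breast cancer, labelled wild type, in 3 groups of 3 libraries. All recipient cells were kept for 72 h in medium that the labels give as 5% exo-free. No sEV cells received no small extracellular vesicles (sEV). Cont sEV cells received vesicles from MDA-MB-231 donors treated with DMSO, and TIS sEV cells received vesicles from MDA-MB-231 donors treated with nocodazole, a drug that blocks microtubule assembly, at 100 ng/ml. Both kinds of donor were treated for 72 h and then released for 72 h into exo-free medium, from which vesicles were collected by differential centrifugation. The series' design text calls the nocodazole-treated donors therapy-induced senescent (TIS). An effect of senescence in the donors and any other effect of nocodazole cannot be told apart in this design.

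Mitochondria keep a small circular genome of their own, present in many copies per cell. Its mRNAs encode core subunits of the respiratory complexes I, III and IV and of the ATP synthase (complex V), which work beside a larger number of subunits that are encoded in the nucleus and imported. Both strands are transcribed as long precursors by the polymerase POLRMT. The tRNAs that lie between most of the longer genes are cut out, which releases the mRNAs and rRNAs. Most of the mRNAs then receive short poly(A) tails, and the mRNAs are translated on mitochondrial ribosomes built on the 2 rRNAs. Complex II has no subunit encoded in the mitochondrial genome.

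On the reference (GRCh38, gene models of GENCODE 29), 28 of the 37 genes lie on the plus strand and are read from the heavy-strand promoter. The other 9 lie on the minus strand and are read from the light-strand promoter: MT-ND6 and 8 tRNAs. Genes of the plus strand are packed so tightly that some reading frames overlap. MT-ATP8 with MT-ATP6 and MT-ND4L with MT-ND4 are each carried on a joint mRNA, while MT-ATP6 and MT-CO3 share only the base at chrM:9207. The junctions within the 2 joint mRNAs are printed because reads that fall on the overlap can belong to either member of a pair. Capitals mark the bases that both genes share, 46 at chrM:8527-8572 for MT-ATP8 and MT-ATP6 and 7 at chrM:10760-10766 for MT-ND4L and MT-ND4, with 15 bases on each side (chrM:8512-8587 and chrM:10745-10781, plus strand).
MT-ATP8/MT-ATP6: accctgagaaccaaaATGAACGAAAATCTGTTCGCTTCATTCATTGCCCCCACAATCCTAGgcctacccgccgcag
MT-ND4L/MT-ND4: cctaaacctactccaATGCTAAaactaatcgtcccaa

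Of the 13 mRNAs, 6 end within a stop codon in the gene model: MT-ND1 after 2 of its bases, and MT-ND2, MT-CO3, MT-ND3, MT-ND4 and MT-CYB after 1. The poly(A) tail supplies the missing bases of such stop codons. The last bases of the mRNAs with the lowest fold changes below, MT-CYB (chrM:14747-15887) and MT-CO3 (chrM:9207-9990), are shown with the partial stop codon in capitals.
MT-CYB: ctcaaatgggccT
MT-CO3: tgatgagggtctT

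Levels are gene-level TPM, which are relative abundances scaled for gene length and for the total of the library, so the read depth behind a value is unknown. The 13 mRNAs and 2 rRNAs were above 0 in all 9 libraries. Ordered by the mean over the 9 libraries, MT-CO2 came first at 4019 TPM, followed by MT-RNR2 at 3485, MT-CO1 at 3222, MT-ATP8 at 2605, MT-CO3 at 2347 and MT-ATP6 at 2116 TPM. These encode catalytic subunits of cytochrome c oxidase (MT-CO1 and MT-CO2) and its remaining core subunit, the large mitochondrial ribosomal RNA, and both mitochondrial subunits of ATP synthase. The complex I mRNAs MT-ND4L (1703 TPM), MT-ND4 (1694 TPM), MT-ND3 (1440 TPM) and MT-ND2 (1288 TPM) lay in the middle, with the small ribosomal RNA MT-RNR1 at 1156 TPM. At the low end were MT-ND1 (782 TPM), MT-ND5 (413 TPM), MT-CYB (380.5 TPM), which encodes cytochrome b, and MT-ND6 at 71.6 TPM. Neighbours in this order such as MT-ND4L and MT-ND4, MT-CO1 and MT-RNR2, or MT-ND5 and MT-CYB differed by less than the range of either gene over the libraries. MT-ND6, the only mRNA read from the light-strand promoter, stood apart: its highest value, 87.9 TPM, was below the lowest of any other mitochondrial mRNA, 269 TPM.

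**Figure D1:**
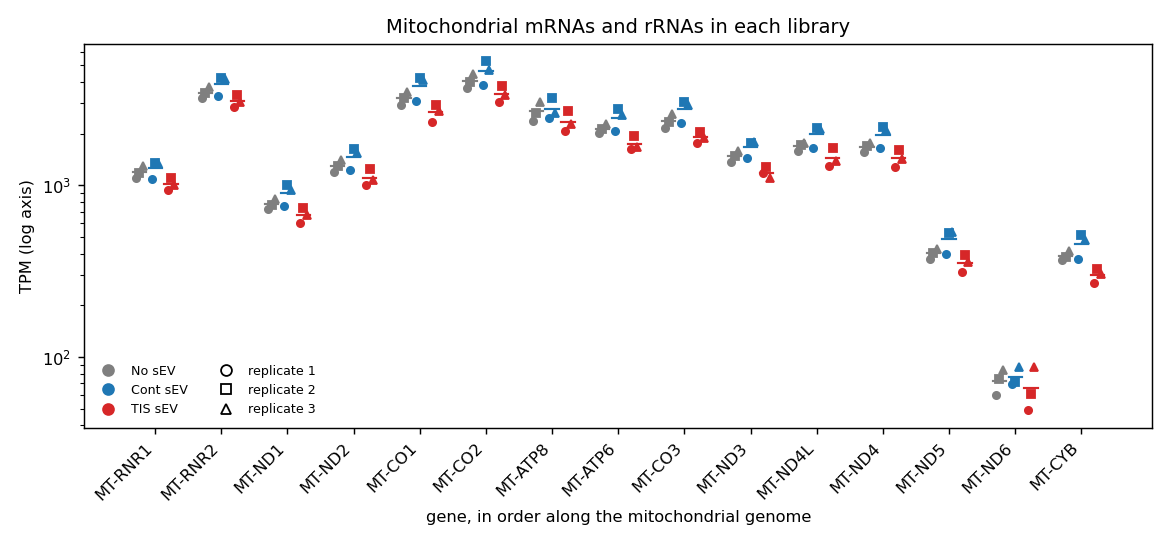
TPM on a log axis for the 13 mRNAs and 2 rRNAs in genome order. Each point is a library, coloured by group and shaped by replicate number, and short lines are group means. TIS sEV points lie mostly under the Cont sEV points, with replicate 1 low in every group, and MT-ND6 is far under the rest.

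Together the 13 mRNAs made up about 2% of all transcripts by TPM, and TIS sEV cells had a lower share than Cont sEV cells. It was 2.04%, 2.21% and 2.41% in No sEV replicates 1 to 3, 2.14%, 2.84% and 2.65% in the Cont sEV replicates and 1.69%, 2.07% and 1.83% in the TIS sEV replicates. The 3 TIS sEV libraries lay under the 3 Cont sEV libraries, with a gap between 2.07% and 2.14%. The No sEV libraries overlapped both other groups. Group means were 1.86% ± 0.195 (SD, n = 3) with TIS sEV, 2.22% ± 0.186 with No sEV and 2.54% ± 0.362 with Cont sEV, which is a log2 ratio of -0.45 for TIS sEV against Cont sEV, -0.25 for TIS sEV against No sEV and 0.19 for Cont sEV against No sEV. The last of these was 0.30 without Cont sEV replicate 1 and 0.11 without Cont sEV replicate 2. No test was made on these sums. In bulk RNA, fewer mitochondria or genome copies and less RNA per genome cannot be told apart, and because TPM is relative, nor can less mitochondrial RNA and more of all other RNA.

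Of the 37 genes, 17 reached 1 TPM in 3 or more libraries, the condition for testing: all 13 mRNAs, both rRNAs and 2 tRNAs. In the fit across all 13879 tested genes (limma's moderated test on log2(TPM + 1), Benjamini-Hochberg adjustment), none of the 17 passed at 0.05 in any of the 3 comparisons. In TIS sEV against Cont sEV, 0.0937% of all tested genes passed. In TIS sEV against No sEV it was 0.00721%, and in Cont sEV against No sEV 0%. The comparisons share groups, so they are not independent of each other.

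TIS sEV against Cont sEV asks what vesicles of nocodazole-treated donors did beyond those of DMSO-treated donors. All 13 mRNAs had a lower mean with TIS sEV, by 13.8% to 34.0% in TPM. On the log2(TPM + 1) scale the fold changes were -0.59 to -0.24 with a median of -0.45, where the median over all tested genes was 0.02 and 4.13% of all tested genes were at -0.2 or below. With no adjustment 11 of the 13 had a p under 0.05 and a lower level, against 2.93% of all tested genes. The groups did not overlap for 9 of the 13, against 4.47% of all tested genes that were lower and did not overlap. The exceptions were MT-ND2, MT-ND4L, MT-ATP8 and MT-ND6. Without Cont sEV replicate 1, the lowest library of its group for all 13 mRNAs, MT-CYB, MT-CO3, MT-ND3 and MT-ATP6 passed. MT-CYB then had an adjusted p of 0.0282, where 0.0724% of all 13807 genes tested in that fit passed. With any other single library left out, none of the 13 passed.

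**Figure D2:**
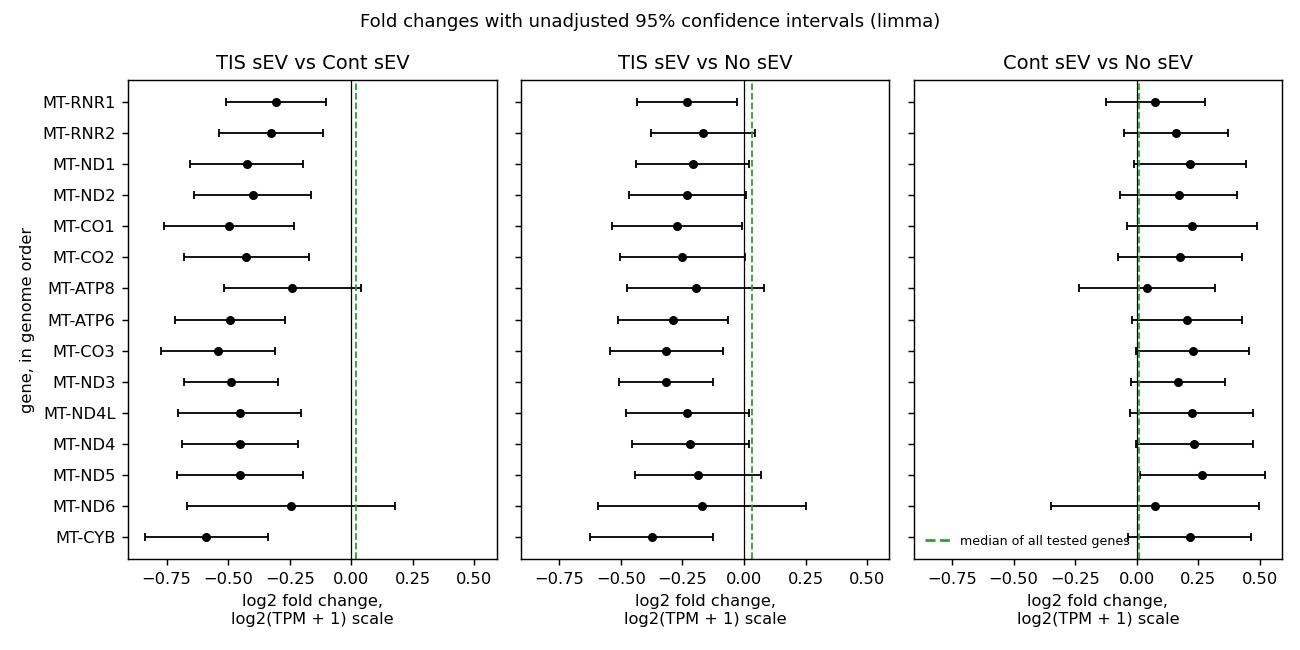
Log2 fold changes on the log2(TPM + 1) scale with unadjusted 95% confidence intervals from limma, by gene in genome order, for the 3 comparisons. The dashed line is the median of all tested genes (0.02, 0.03 and 0.01 from left to right), and in the left panel only MT-ATP8 and MT-ND6 have intervals that reach 0.

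MT-CYB had the lowest fold change. Cytochrome b is the only subunit of complex III that mitochondria encode, and it carries both quinone-binding sites of that complex. Its mRNA (ENSG00000198727) was at 365, 384 and 415 TPM with No sEV, at 370.2, 515 and 477 TPM with Cont sEV and at 269, 326 and 303 TPM with TIS sEV. All TIS sEV libraries were under the other 6, and Cont sEV replicate 1 was at the level of No sEV. The log2 fold change against Cont sEV was -0.59 (SE 0.11, 95% confidence interval -0.84 to -0.34, adjusted p = 0.127).

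For complex IV, TIS sEV and Cont sEV did not overlap for 3 of 3 mRNAs, against 4.47% of all tested genes that were lower and did not overlap. MT-CO3, which encodes the core subunit with no redox centre, was at 2166, 2337 and 2588 TPM with No sEV, at 2319, 3069 and 2949 TPM with Cont sEV and at 1754, 2052 and 1888 TPM with TIS sEV. As for MT-CYB, the TIS sEV values were under all 6 others, and the log2 fold change against Cont sEV was -0.54 (SE 0.10, adjusted p = 0.128). MT-CO1, which encodes the subunit with the oxygen-reducing centre, was at 2939, 3218 and 3488 TPM with No sEV, at 3079.6, 4191 and 4083 TPM with Cont sEV and at 2351, 2935 and 2716 TPM with TIS sEV. Here the highest TIS sEV library was only just under the lowest library of the other groups, and the log2 fold change was -0.50 (SE 0.12, adjusted p = 0.223). MT-CO2, which encodes the subunit that takes electrons from cytochrome c, was at 3854.6 to 5264 TPM with Cont sEV and at 3072 to 3792 TPM with TIS sEV (log2 fold change -0.43, adjusted p = 0.245). The gap between these groups was small beside the range within either.

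Complex I has 7 mitochondrial subunits, all in its membrane arm. MT-ND3 had the smallest adjusted p of the 17 tested genes. It was at 1368, 1478 and 1576.5 TPM with No sEV, at 1439.7, 1767 and 1781 TPM with Cont sEV and at 1172, 1275 and 1100.04 TPM with TIS sEV, with all TIS sEV libraries under the other 6 (log2 fold change against Cont sEV -0.49, SE 0.09, adjusted p = 0.0961). MT-ND4 and MT-ND5, which belong to the distal, proton-pumping part of the arm, had log2 fold changes of -0.45 and -0.45, with the groups apart for both: 1280 to 1610 TPM against 1657 to 2179 TPM for MT-ND4, and 310.3 to 391 TPM against 399 to 535 TPM for MT-ND5. MT-ND1, at the junction with the peripheral arm, was at 601 to 741 TPM with TIS sEV and at 761 to 1005 TPM with Cont sEV (log2 fold change -0.42). For MT-ND2 and MT-ND4L the highest TIS sEV library, replicate 2, lay just above the lowest Cont sEV library, replicate 1: 1236 against 1234 TPM for MT-ND2 and 1652 against 1647.5 TPM for MT-ND4L. Their log2 fold changes were -0.40 and -0.45. Adjusted p-values for these 5 genes were 0.214 to 0.245.

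The joint mRNA of MT-ATP8 and MT-ATP6 encodes 2 membrane subunits of ATP synthase, of which the MT-ATP6 product forms part of the proton channel. MT-ATP6 was at 2002.8, 2132 and 2259.5 TPM with No sEV, at 2079 to 2785 TPM with Cont sEV and at 1627, 1933 and 1680.5 TPM with TIS sEV, under all 6 other libraries (log2 fold change against Cont sEV -0.49, SE 0.10, adjusted p = 0.159). MT-ATP8, read from the same mRNA, was at 2378, 2636 and 3058 TPM with No sEV, at 2464, 3234 and 2626 TPM with Cont sEV and at 2076, 2701 and 2271 TPM with TIS sEV. Its groups overlapped, and its log2 fold change was -0.24 (SE 0.12, adjusted p = 0.574), with -0.12 when Cont sEV replicate 2 and -0.15 when TIS sEV replicate 1 was left out. Per 100 TPM of MT-ATP6 the level of MT-ATP8 was thus not constant. Their ratio was 1.03 to 1.18 with Cont sEV, 1.19 to 1.35 with No sEV and 1.276 to 1.398 with TIS sEV. Of the 31-base words of MT-ATP8, 9.04% are also in MT-ATP6, and with 207 bases it is the shortest of the 13. The other joint mRNA gave equal values for its members: the ratio of MT-ND4L to MT-ND4 was 0.972 to 1.03 in the 9 libraries.

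MT-ND6, a complex I subunit and the only light-strand mRNA, was at 60.3, 74.3 and 83.8 TPM with No sEV, at 69.3, 71.8 and 87.9 TPM with Cont sEV and at 49.0, 61.2 and 87.2 TPM with TIS sEV. The 3 groups overlapped. TIS sEV replicate 3 was at the top of its group for MT-ND6 and not for any other of the mRNAs, and MT-ND6 was 0.478 per 100 TPM of the other 12 mRNAs there, against 0.254 to 0.349 in the other 8 libraries. The log2 fold change against Cont sEV was -0.24 with a confidence interval of -0.67 to 0.18 (adjusted p = 0.721), wide enough to hold both no difference and the median of the 13. Leaving out TIS sEV replicate 1 gave -0.055, leaving out Cont sEV replicate 3 gave -0.14 and leaving out TIS sEV replicate 3 gave -0.46. Whether MT-ND6 differed from the heavy-strand mRNAs in response was not tested.

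Both ribosomal RNAs, which form the small (MT-RNR1) and large (MT-RNR2) subunits of the mitochondrial ribosome, were under their Cont sEV means in TIS sEV cells, by smaller amounts than most mRNAs. MT-RNR2 was at 3215, 3443 and 3749.6 TPM with No sEV, at 3305, 4191 and 4181 TPM with Cont sEV and at 2874, 3359 and 3043 TPM with TIS sEV. TIS sEV replicate 2 lay above Cont sEV replicate 1, so the groups overlapped (log2 fold change -0.33, SE 0.09, adjusted p = 0.284). MT-RNR1 was at 1092 to 1347 TPM with Cont sEV and at 936 to 1103 TPM with TIS sEV (log2 fold change -0.31, SE 0.09, adjusted p = 0.287). In percent of the summed mRNAs, the 2 rRNAs came to 20.9 to 21.2 with No sEV, 19.5 to 20.9 with Cont sEV and 21.5 to 22.6 with TIS sEV, so this measure was higher in the TIS sEV libraries than in the other 6. The ratio of MT-RNR2 to MT-RNR1 was 2.88 to 2.93 with No sEV, 3.03 to 3.12 with Cont sEV and 3.01 to 3.07 with TIS sEV. No test was made on these ratios. Library preparation is described only as a standard Illumina protocol, so whether it selected poly(A) RNA or removed rRNA is not known here.

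The 22 tRNAs were close to undetected. They are adaptors of 59 to 75 bases in the gene models, 1 or 2 for each amino acid. All 9 libraries listed 16 of them at 0, and 4 more were above 0 in 1 library only. MT-TF, the tRNA for phenylalanine that opens the heavy-strand transcript, was above 0 in 4 libraries, and MT-TV, the tRNA for valine between the 2 rRNA genes, in 5. Their sequences are printed because these alone of the tRNAs were tested (chrM:577-647 and chrM:1602-1670, plus strand).
MT-TF: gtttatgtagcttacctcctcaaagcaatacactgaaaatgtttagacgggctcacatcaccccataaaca
MT-TV: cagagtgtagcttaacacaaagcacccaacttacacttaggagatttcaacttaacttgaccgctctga

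MT-TF was listed at 12.1, 0 and 0 TPM with No sEV, at 0, 4.35 and 0 TPM with Cont sEV and at 4.97, 4.598 and 0 TPM with TIS sEV. MT-TV was listed at 0, 0 and 11.0 TPM with No sEV, at 0, 4.30 and 4.58 TPM with Cont sEV and at 10.5, 4.73 and 0 TPM with TIS sEV. Each group held libraries at 0 for MT-TF and for MT-TV, and no fold is given. Adjusted p-values were 0.837 and 0.944 in TIS sEV against Cont sEV. Of the 8 light-strand tRNAs, 1 was above 0 in any library.

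TIS sEV against No sEV asks what the nocodazole donors' vesicles did against none. All 13 mRNAs again had lower means with TIS sEV, by 9.66% to 22.8%, with a median log2 fold change of -0.23 where the median of all tested genes was 0.03. With no adjustment 5 of the 13 had a p under 0.05 and a lower level, against 1.64% of all tested genes. Those 5, MT-CYB (-0.37), MT-ND3 (-0.32), MT-CO3 (-0.32), MT-ATP6 (-0.29) and MT-CO1 (-0.27), were also the 5 whose groups did not overlap, against 2.77% of all tested genes. Their adjusted p-values were 0.467 to 0.622. For the other 8 the highest TIS sEV library reached into the range of No sEV. MT-RNR1 gave -0.23 (adjusted p = 0.588) and MT-RNR2 -0.17 (adjusted p = 0.702), with overlap in both.

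Cont sEV against No sEV asks what the vesicles of DMSO-treated donors did on their own. All 13 mRNAs had a higher mean with Cont sEV, with log2 fold changes of 0.04 (MT-ATP8) to 0.27 (MT-ND5) and a median of 0.21, where that of all tested genes was 0.01. Leaving out Cont sEV replicate 1 took this median to 0.33, and leaving out replicate 2 took it to 0.12. No group was apart from the other for any of the 13, against 6.72% of all tested genes that were higher and did not overlap. MT-ND5 alone had a p under 0.05 with no adjustment (adjusted p = 0.807), against 3.53% of all tested genes that were higher. Cont sEV replicate 1 lay within the No sEV range for all 13 mRNAs, for example at 370.2 TPM of MT-CYB between 365 and 415, while replicates 2 and 3 exceeded No sEV replicate 3 for most of them.

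The spread within groups was large beside that of other abundant genes and was shared by the members. Leaving aside MT-ND6, the residual SD on the log2 scale was 0.132 (MT-ND3) to 0.194 (MT-ATP8), against a median of 0.0393 over the 771 genes that averaged 200 TPM or more, and at least 97.8% of those genes had a smaller SD. MT-ND6, whose level is lower, had an SD of 0.295. In No sEV and in Cont sEV replicate 1 was the lowest library for all 15, and in TIS sEV for 14 of 15, the exception being MT-ND3. The highest library was replicate 3 for all 15 in No sEV, replicate 2 for 12 of 15 in Cont sEV and replicate 2 for 14 of 15 in TIS sEV. The members thus moved together from library to library, and their 13 fold changes are not 13 separate observations. The replicate number is not tied to a shared culture or day in the labels.

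**Figure D3:**
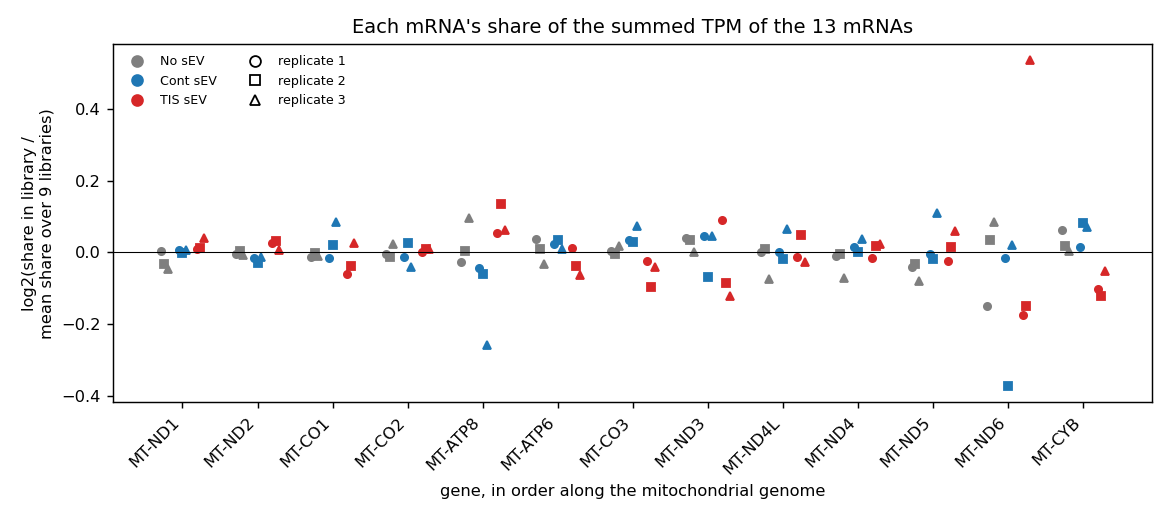
Share of each mRNA in the summed TPM of the 13 mRNAs, as log2 of its ratio to the mean share over the 9 libraries, by library and in genome order. For MT-CYB and for MT-CO3 the TIS sEV points lie under those of the other groups, and the points of MT-ATP8 and MT-ND6 scatter most.

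Within the pool of 13 mRNAs most shares stayed in narrow ranges. Complex I mRNAs held 32.5% to 34.4% of the pool and complex IV mRNAs 42.4% to 44.3% over the 9 libraries. Complex V mRNAs held 21.5% to 22.1% with No sEV, 19.6% to 21.3% with Cont sEV and 21.6% to 22.4% with TIS sEV. The Cont sEV libraries were thus under the other 6. This came from MT-ATP8 alone, with mean shares of 10.95% with Cont sEV, 12.09% with No sEV and 12.59% with TIS sEV. For MT-ATP6 the mean share was highest with Cont sEV, at 9.72%, against 9.61% with No sEV and 9.39% with TIS sEV. Its groups overlapped. MT-CYB held 1.58% to 1.65% of the pool with TIS sEV and 1.72% to 1.81% in the other 6 libraries. MT-CO3 held 9.91% to 10.4% with TIS sEV, 10.6% to 10.7% with No sEV and 10.8% to 11.1% with Cont sEV. The ratio of MT-CO1, read from the same strand, to MT-CYB was 8.73 to 8.99 with TIS sEV and 8.05 to 8.57 in the others. This ratio uses the same MT-CYB values, which had the lowest fold change, so it is no separate support. The share of MT-ND2 went the other way from that of MT-CYB by a small amount, at 5.87% to 5.97% with TIS sEV, 5.81% to 5.86% with No sEV and 5.72% to 5.79% with Cont sEV. So did that of MT-ND1, at 3.57% to 3.65% with TIS sEV and 3.43% to 3.56% in the other 6 libraries. These shares sum to 100 in each library, so they depend on each other, and they were not tested.

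**Figure D4:**
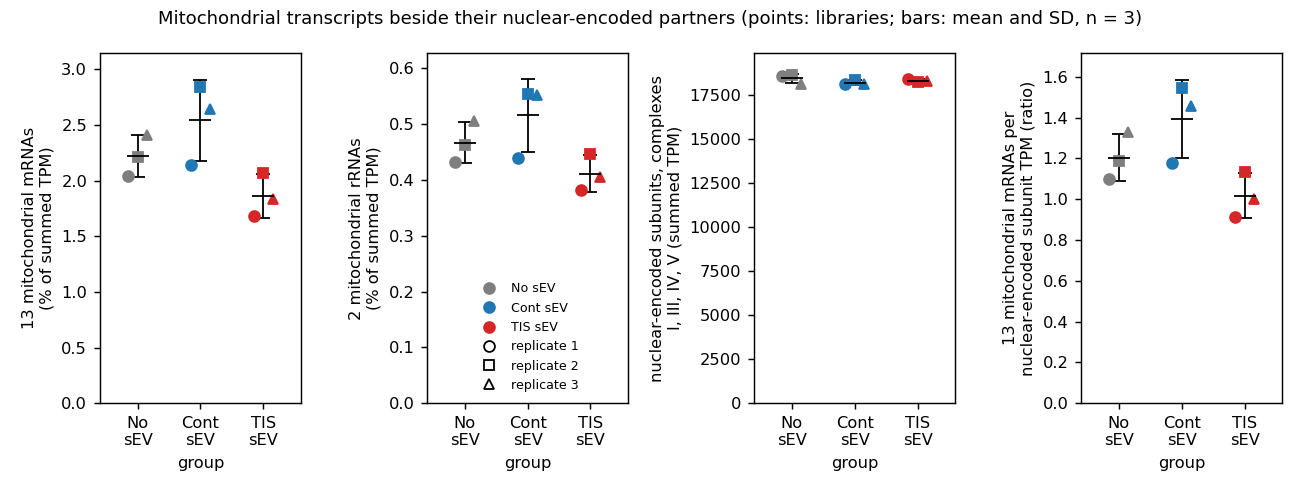
From left to right: the 13 mRNAs and the 2 rRNAs in percent of all TPM, the summed TPM of the nuclear-encoded subunits of complexes I, III, IV and V and the ratio of the mRNAs to those subunits. Points are libraries, bars are mean and SD (n = 3), and the nuclear-encoded sums are nearly level over the groups.

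The nuclear-encoded partners of these proteins had nearly constant levels. The summed TPM of 72 nuclear genes for subunits of complexes I, III, IV and V was 18143 to 18656 in all 9 libraries. NDUFA4, with a mean of 54.7 TPM over the 9 libraries, was listed under both complex I and complex IV. The sum and the ratios below count it under each. The ratio of the 13 mitochondrial mRNAs to the sum was 1.10, 1.19 and 1.33 with No sEV, 1.18, 1.54 and 1.46 with Cont sEV and 0.915, 1.13 and 0.999 with TIS sEV. By complex, mean ratios with TIS sEV and Cont sEV were 0.990 and 1.36 for complex I, 0.130 and 0.1998 for complex III, 1.72 and 2.39 for complex IV and 0.807 and 1.04 for complex V. In TIS sEV against Cont sEV, all 72 nuclear genes were tested and 0 passed, with 43 higher and 29 lower means. Their median log2 fold change was 0.02, equal to that of all tested genes. With no adjustment 5 were higher and 4 lower at a p under 0.05, against 7.07% and 2.93% of all tested genes.

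Among these partners the smallest p-values were of NDUFS7 (log2 fold change 0.17, adjusted p = 0.173) and NDUFS6 (0.18, adjusted p = 0.229), subunits of the peripheral arm of complex I. NDUFS7, which holds the last iron-sulfur cluster before ubiquinone, was at 91.3, 87.5 and 86.6 TPM with No sEV, at 79.6, 84.1 and 78.5 TPM with Cont sEV and at 89.9, 90.1 and 93.1 TPM with TIS sEV. The Cont sEV libraries were lowest for this gene, the reverse of the mitochondrial mRNAs. In complexes III, IV and V the genes of smallest p were UQCR11 (-0.11), COX6A1 (-0.08) and ATP5IF1 (0.11), which encodes the inhibitor of ATP synthase, with adjusted p-values of 0.483, 0.489 and 0.393. The 4 genes of complex II, which has no mitochondrial subunit, had log2 fold changes of -0.08 (SDHC) to 0.06 (SDHA).

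**Figure D5:**
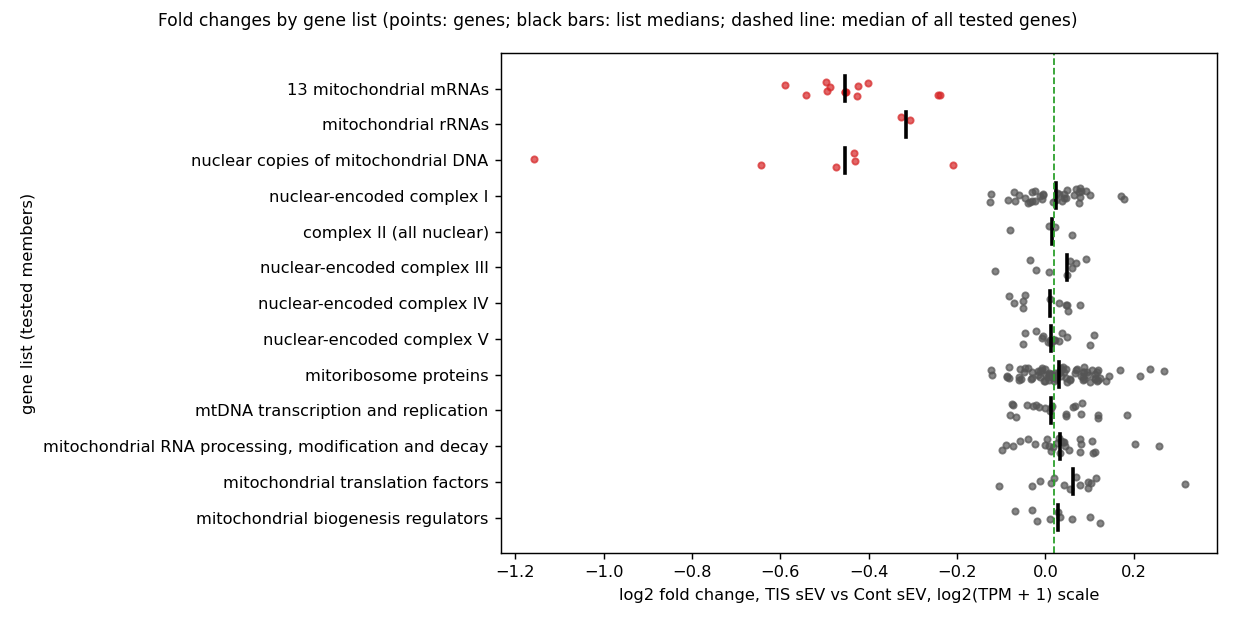
Log2 fold changes in TIS sEV against Cont sEV of the tested members of each list. Points are genes, black bars are list medians and the dashed line is the median of all tested genes (0.02). Lists of mitochondrial transcripts and of their nuclear copies lie to the left, with medians of -0.45, -0.32 and -0.45, and every list of nuclear genes is centred between 0.01 and 0.06.

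The nuclear genes that make, process and translate mitochondrial RNA did not share the lower means of its transcripts with TIS sEV. None of the members of the lists for transcription and replication of the genome (21 tested), RNA processing and decay (27), translation factors (14) and mitoribosome proteins (80) passed in TIS sEV against Cont sEV, and the medians were 0.01, 0.03, 0.06 and 0.03. Higher means were found for 12 of 21, 21 of 27, 11 of 14 and 56 of 80 genes, where 8278 of all 13879 tested genes were higher. POLRMT, the polymerase itself, was at 23.0, 19.9 and 24.6 TPM with No sEV, at 22.8, 18.7 and 23.7 TPM with Cont sEV and at 25.6, 22.4 and 26.4 TPM with TIS sEV, with overlapping groups (log2 fold change 0.19, adjusted p = 0.596). The genome's polymerase POLG (0.12), the helicase TWNK (0.12) and the protease LONP1 (0.08) had adjusted p-values of 0.486, 0.604 and 0.524.

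In RNA processing the lowest p was that of FASTKD1, a member of the FASTK family of mitochondrial RNA regulators. It was at 5.94, 6.09 and 6.51 TPM with No sEV, at 7.98, 7.54 and 6.27 TPM with Cont sEV and at 9.03, 8.54 and 8.94 TPM with TIS sEV. The TIS sEV libraries were above the other 6, and the log2 fold change against Cont sEV was 0.26 (adjusted p = 0.359). FASTKD3 (0.20), the pseudouridine synthase RPUSD3 (0.11) and MRPL12 (0.11), a ribosomal protein that also binds POLRMT, had adjusted p-values of 0.519, 0.409 and 0.365. Among translation genes the release factor MTRF1 (0.32, adjusted p = 0.337) and the ribosomal protein MRPS25 (0.27, adjusted p = 0.174) were higher with TIS sEV in every library pair, and MRPL54 was lower (-0.12, adjusted p = 0.282). With no adjustment 14 of the 80 mitoribosome genes were higher and 5 lower at a p under 0.05, where 7.07% and 2.93% of all tested genes were. The groups did not overlap for 16 of the 80 that were higher and 6 that were lower with TIS sEV, against 10.9% and 4.47% of all tested genes.

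Copies of mitochondrial DNA inserted into the nuclear genome can take up reads of mitochondrial RNA. The table has 404 such copies of the mRNAs by name, of which 384 were at 0 in all libraries and 6 were tested, all in a block on chromosome 1 (chr1:629062-634922). MTATP6P1 (chr1:633696-634376), an unprocessed pseudogene with 98.5% identity to MT-ATP6, had the highest level, at 12.7 to 14.3 per 100 TPM of MT-ATP6 in the 9 libraries. The first 60 bases of the gene (chrM:8527-8586) and of the copy (chr1:633696-633755, plus strand) are printed to show how few bases tell them apart. The capital marks G19A, counted from the first base of MT-ATP6, which is 1 of 10 differences over 681 bases.
MT-ATP6: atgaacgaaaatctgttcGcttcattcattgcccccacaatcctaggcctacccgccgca
MTATP6P1: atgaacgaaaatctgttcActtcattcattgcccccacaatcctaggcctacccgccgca

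MTATP6P1 was at 267, 284 and 307 TPM with No sEV, at 285, 371 and 324 TPM with Cont sEV and at 221, 277 and 227 TPM with TIS sEV, a log2 fold change of -0.43 against Cont sEV (adjusted p = 0.223). In the same comparison all 6 tested copies had lower means, their median was -0.45, and none passed. Without Cont sEV replicate 1, MTCO1P12 passed (-0.59, adjusted p = 0.0282), and with no filter 20 copies were tested, with a median of -0.09. MTCO1P12 was at 1.51 to 1.79 per 100 TPM of MT-CO1. Reads of these copies and of the mitochondrial genes cannot be told apart where they share sequence: of the 31-base words in the gene models, 66.7% of MT-CO1, 62.8% of MT-ATP6 and 56.9% of MT-ND2 also occur in some nuclear gene. For MT-CYB this is 4.95%, for MT-ND3 3.48% and for MT-RNR1 0%. The part of read sharing in the fold changes was not tested. MTRNR2L12, the only tested gene of 13 nuclear humanin-like genes that resemble MT-RNR2, was at 0.422 to 1.60 TPM.

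Some other RNAs were read beside these results. The summed TPM of RNAs listed as lacking a poly(A) tail, histone genes included, was 734, 494 and 565 with No sEV, 480.1, 446 and 423 with Cont sEV and 513, 643 and 407 with TIS sEV. It was lower in all Cont sEV libraries than in all No sEV libraries. Whether this sum reflects how a library was selected was not tested, nor was its part in the mitochondrial values. The 5 markers listed as high in MDA-MB-231 summed to 3866 to 3955 TPM with TIS sEV and to 3727 to 3834 TPM with No sEV and Cont sEV. Of these, VIM was at 2206 to 2299 TPM and CD44 at 428 to 514 TPM in the 9 libraries. The luminal markers ESR1, PGR and CDH1 did not exceed 0.577 TPM. The other luminal markers were higher, KRT8 at 317 to 348 TPM, EPCAM at 21.1 to 25.9 TPM and GATA3 at 2.63 to 4.54 TPM. Of the leukocyte markers, PTPRC was at 0.125 to 1.41 TPM, CD14 at 2.13 to 3.84 TPM and CD3E at no more than 0.0387 TPM. Markers of other cell types summed to 8.43 to 12.0045 TPM for fibroblasts (5 genes) and to 1.49 to 2.30 TPM for endothelium (3 genes). The endothelial sum was 1.49 to 1.796 TPM with TIS sEV and 2.10 to 2.30 TPM with Cont sEV, almost all of it PECAM1, and the defining endothelial genes VWF and CDH5 did not exceed 0.182 TPM. Pearson's r over genes was 0.991 to 0.994 between libraries of a group and 0.992 to 0.994 between libraries of different groups. In each library 21292 to 21975 genes were above 0.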

How the data were processed

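The authors deposited 1 table of gene-level TPM for 9 libraries; all 9 columns were used. The submitters' processing notes name Salmon 1.4.0, DESeq2 1.28.0, Trim Galore 0.6.6 and FastQC 0.11.9, and GRCh38.p13 as the build; they name no annotation release. TPM holds no depth, and no counts, intervals on shares or count model were used. Each library's group and number were read from its label. No label says that replicates were separate cultures, so a p-value covers the spread among these libraries alone, which may be technical. Symbols were matched by Ensembl ID (60463 of 60719, 99.58%), and coordinates and sequences come from GENCODE 29, which may differ from the authors' release. log2(TPM + 1) of the 13879 genes that reached 1 TPM in 3 or more libraries was fitted with limma 3.58.1 in R 4.3.3 over the 9 libraries together, with trended variances, two-sided tests and Benjamini-Hochberg adjustment over all genes at 0.05. Fold changes on this scale understate those of low genes. The steps were tested on simulated data. Shared words of 31 bases and identities were computed in Python 3.11.15 with Biopython 1.88, and figures drawn with matplotlib 3.10.9.

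The 13 mRNAs, 2 rRNAs and tRNAs with a mean of at least 1 TPM were named, and of other lists up to 4 genes of smallest p in TIS sEV against Cont sEV. Genes and lists were chosen with earlier results of these data known. Alternatives were other pseudocounts, filters and scalings, a replicate block, library weights, a constant prior variance, only the libraries compared, adding nuclear copies, and leaving out each library. A marker gene of the lists is not reported here.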

Additional observations from a re-analysis of the deposited data

How the results depend on the processing

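In TIS sEV against Cont sEV, none of the mitochondrial genes passed in limma's test, and 4 did with the replicate number as a block (MT-CO1, MT-CO3, MT-ND4 and MT-CYB, adjusted p = 0.0428 to 0.0454, where 9 of all tested genes passed, 0.0648%) and 4 without Cont sEV replicate 1 (MT-ATP6, MT-CO3, MT-ND3 and MT-CYB, which was then at -0.73, adjusted p = 0.0282), so that leaving out each library gave 0 to 4. The block is no paired design, as the labels do not tie the numbers. Over all tested genes, deviations of same-numbered libraries correlated at -0.05 to 0.08. Of the 15 mitochondrial mRNAs and rRNAs, however, replicate 1 was the lowest library for 15 in No sEV, 15 in Cont sEV and 14 in TIS sEV. The share log2 ratio was -0.44 with the block and -0.56 to -0.36 with a library left out. The median of the 13 mRNAs stayed between -0.58 and -0.37 over all alternatives and all 13 stayed lower. In TIS sEV against No sEV, MT-ND6 turned to 0.017 without TIS sEV replicate 1, in a range of -0.39 to 0.017 with a library left out. In Cont sEV against No sEV, MT-ATP8 turned to -0.0028 with library weights, -0.043 without No sEV replicate 1 and -0.073 without Cont sEV replicate 2 (range -0.073 to 0.14), and MT-ND6 to -0.055 without No sEV replicate 1 and -0.032 without Cont sEV replicate 3 (range -0.055 to 0.18). Of all tested genes, 13 passed in TIS sEV against Cont sEV, 2 with a constant prior variance, 3 with only the 6 libraries compared and 2 to 13 with a library left out. In TIS sEV against No sEV 1 passed, 9 with no filter, 0 with a constant prior variance, 2 with only the 6 libraries compared and 1 to 2 with a library left out. In Cont sEV against No sEV 0 passed, 7 with no filter, 1 with at least 5 TPM in 3 libraries and 0 to 1 with a library left out. The causes were not tested.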

Other observations

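Nuclear genes that control the number and turnover of mitochondria gave 0 calls in TIS sEV against Cont sEV in limma's test with Benjamini-Hochberg adjustment. Of all tested genes 0.0937% passed, and 8278 of 13879 had higher means, with a median log2 fold change of 0.02. Of 9 biogenesis regulators 6 had higher means, with a median log2 fold change of 0.03. ESRRA, an orphan receptor that drives genes of oxidative phosphorylation, was at 49.2, 46.0 and 46.8 TPM with Cont sEV and at 48.6, 52.8 and 51.1 TPM with TIS sEV (0.10, adjusted p = 0.468), and MYC was at 440.5 to 460.1 TPM and 436 to 452 TPM (-0.02, adjusted p = 0.86). Of 11 tested mitophagy and dynamics genes 8 had higher means, with a median of 0.03. OPTN, a mitophagy receptor, was at 116 to 121 TPM with Cont sEV and at 124 to 131 TPM with TIS sEV (0.11, adjusted p = 0.337), and PINK1, the kinase that marks damaged mitochondria, was at 163 to 172 TPM and at 176 to 182 TPM (0.09, adjusted p = 0.35). The groups did not overlap for OPTN and for PINK1, against 10.9% of all tested genes that were higher and did not overlap. Of 14 tested genes of the mitochondrial stress response 9 had higher means, with a median of 0.02. The stress transcription factor ATF4 was at 409 to 431 TPM with Cont sEV and at 404 to 408 TPM with TIS sEV (-0.06, adjusted p = 0.571), and the chaperonin HSPD1 was at 326 to 341 TPM and at 341 to 345 TPM (0.05, adjusted p = 0.633).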
